A study of Arabidopsis thaliana with 6 samples.

Results

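The JASMONATE ZIM-DOMAIN (JAZ) genes encode the repressors of jasmonate signalling. The 6 described here, JAZ1 (AT1G19180), JAZ2 (AT1G74950), JAZ5 (AT1G17380), JAZ7 (AT2G34600), JAZ8 (AT1G30135) and JAZ10 (AT5G13220), were chosen because they are JAZ genes in the authors' deposited tables of genes changed in sams3, which hold 1336 genes in all. The compared groups were whole Arabidopsis thaliana seedlings of sams3, a mutant of S-adenosylmethionine synthetase 3 in the L119 background, and of the transgenic line L119 itself, used as wild type. Both were taken after 15 days at 22 °C on agar (0.8%) with sucrose at 20 g/L and 23 h of light a day. RNA was sequenced from 2 libraries of sams3 and 2 libraries of L119. Separate cultures are not stated, and the spread between libraries behind the authors' p-values may therefore be technical. The transgene of L119 and the nature of the sams3 mutation are not described in the labels.

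Jasmonates are lipid-derived hormones made after wounding, insect feeding and infection, and in flower development. At rest, JAZ proteins bind MYC transcription factors and bring in the corepressors NINJA and TOPLESS (TPL), which keeps jasmonate-responsive genes off. The active hormone, jasmonoyl-isoleucine, joins JAZ proteins to the F-box receptor COI1, the JAZ proteins are degraded, and the MYC factors are set free. Many JAZ genes are themselves targets of the MYC factors, so JAZ transcripts are widely used as markers of an active jasmonate response, although they encode its repressors. The conserved TIFY (ZIM) domain of these proteins binds NINJA and other JAZ proteins, and the Jas motif near the C terminus binds COI1 and the MYC factors.

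The values are log2 fold changes, sams3 over L119, and p-values from the authors' comparison, which the tables give for features past a change of 2-fold and a p-value of 0.0001. Values per library were not used here, so no level, standard error or spread can be set beside a fold. The sequencing depth is unknown. A gene outside the tables is called not listed, which does not say that it was unchanged. SAMS3 itself was not listed, so the tables give no check of the mutant label. In bulk seedlings, a change in the number of cells that express a gene and a change per cell cannot be told apart.

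All 6 JAZ genes were in the table of genes higher in sams3 and 0 in the table of lower genes. That table holds 894 genes, and the protein-coding genes among them make up 3.12% of the protein-coding loci of the reference, against 1.58% for the lower genes. These shares are given as a background only, since the genes were chosen by their listing and the reference also counts loci that the authors may not have tested. The rises ran between 2.24-fold and 11.2-fold. The median log2 fold change of the 6 in the authors' deposited table was 1.97 (SD 0.84 over the 6 genes), and the median of all 894 higher genes was 1.62. The interquartile range of all higher genes was 1.24 to 2.30, which held JAZ2, JAZ5 and JAZ7, with JAZ1 below it and JAZ8 and JAZ10 above it.

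JAZ10 had the largest rise of the 6. The authors' deposited table gives a log2 fold change of 3.48, which is 11.2-fold (p = 1.53e-145). JAZ10 is known for transcripts spliced in several ways, some of which encode proteins that COI1 binds weakly and that resist degradation. A value for the whole gene, as here, does not separate these forms. By size of the rise JAZ10 was number 103 of the 894 higher genes, and by p-value number 45. Of the 102 genes with a larger rise in the authors' deposited table, 11 had a smaller p-value than JAZ10. Among the 28 other higher genes within 0.25 of its log2 fold change, 1 had a smaller p-value, and their median p in the authors' deposited table was 3.87e-14.

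JAZ8 and JAZ7 came next. In the authors' deposited table JAZ8 had a log2 fold change of 2.35, or 5.12-fold (p = 9.59e-81), and JAZ7 one of 2.00, or 4.002-fold (p = 6.98e-83). JAZ8 is known to lack the degron sequence through which the hormone and COI1 take hold of other JAZ proteins, and so to be stable where others are degraded. Both JAZ7 and JAZ8 carry an EAR motif of their own, which recruits TPL without NINJA. They ranked 288 (JAZ7) and 212 (JAZ8) by fold among the higher genes, and 116 (JAZ7) and 118 (JAZ8) by p-value. Of the other higher genes within 0.25 of their log2 fold changes, 30 of 140 had a smaller p-value than JAZ7, and 21 of 92 a smaller one than JAZ8.

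JAZ5 had the smallest p-value of the 6. The authors' deposited table gives a log2 fold change of 1.94, or 3.83-fold (p = 1.99e-161), close to that of JAZ7 and with a p-value many orders of magnitude smaller. By fold JAZ5 was number 317 of the higher genes and by p-value number 37. The order of the 6 by fold was therefore not their order by p-value. Whether neighbours in the order by fold, such as JAZ7 and JAZ5, which lie 0.06 apart on the log2 scale, differ beyond the spread between libraries was not tested, since no error of a fold was used.

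JAZ2 and JAZ1 had the smallest rises, nearest to the authors' minimum of 1 on the log2 scale. JAZ2, known for a part in the guard cells of stomata, had a log2 fold change of 1.29 in the authors' deposited table, or 2.45-fold (p = 9.48e-92). For JAZ1, among the JAZ proteins most studied as a partner of COI1, the authors' deposited table gives 1.17, or 2.24-fold (p = 7.76e-88). By fold JAZ2 was number 621 and JAZ1 number 710 of the higher genes, in the lower part of the list, whereas by p-value they were numbers 96 and 104. JAZ genes just outside the minimum cannot be given, because the tables hold no values below it.

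**Figure D1:**
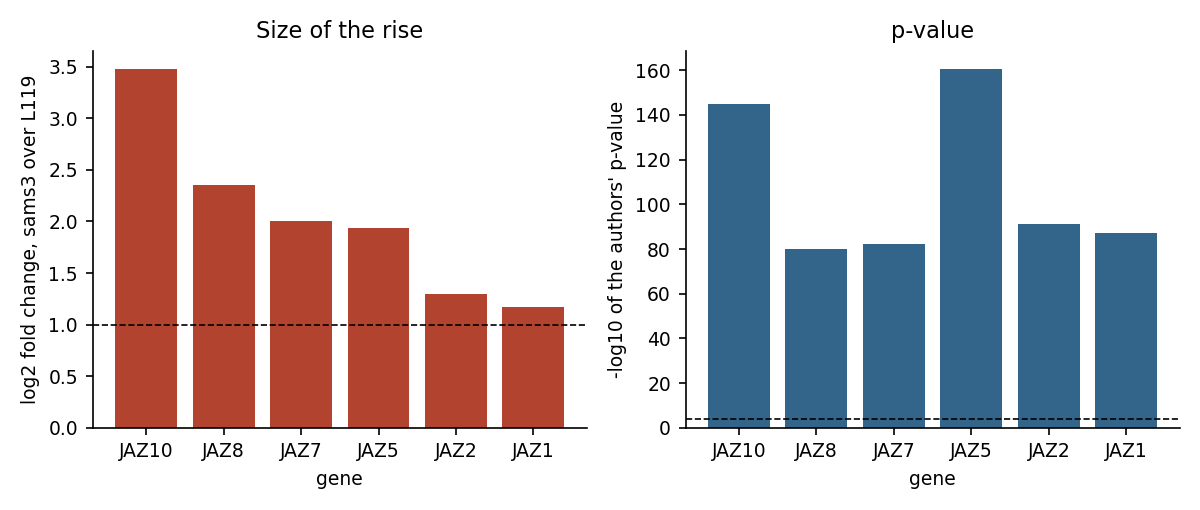
Log2 fold change, sams3 over L119 (left), and -log10 of the p-value (right), both from the authors' deposited table, for each of the 6 JAZ genes (horizontal axis), ordered by fold. Dashed lines mark the authors' limits, a minimum fold and a maximum p-value, and bars have no error because none was used. JAZ10 is highest by log2 fold change at 3.48, and JAZ5 is highest by -log10 of the p-value at 160.7.

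In rank among the 894 higher genes, the 6 genes lay closer together by p-value (37 to 118) than by fold (103 to 710). Their p-values in the authors' deposited table ran between 1.99e-161 and 9.59e-81, and all 6 were among the first 118 of 894, against a median p of 1.26e-21 over all higher genes. Small p-values were not particular to the JAZ genes. In the same deposited table the 8 higher genes of hormone synthesis, described further on, ran from 2.48e-227 (LOX4) to 2.2e-99 (AOC3). Those of hormone removal with a symbol in the reference ran from 7.61e-226 (CYP94C1) to 1.09e-23 (JRG21). The largest folds in the table came with far weaker p-values: for the 54 genes with a log2 fold change of at least 6 the median p in the authors' deposited table was 1.3e-08. JAZ10, with the largest rise of the 6, lies well below that range of folds and has a much smaller p-value. The limit of 6 was set after the values were seen.

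**Figure D2:**
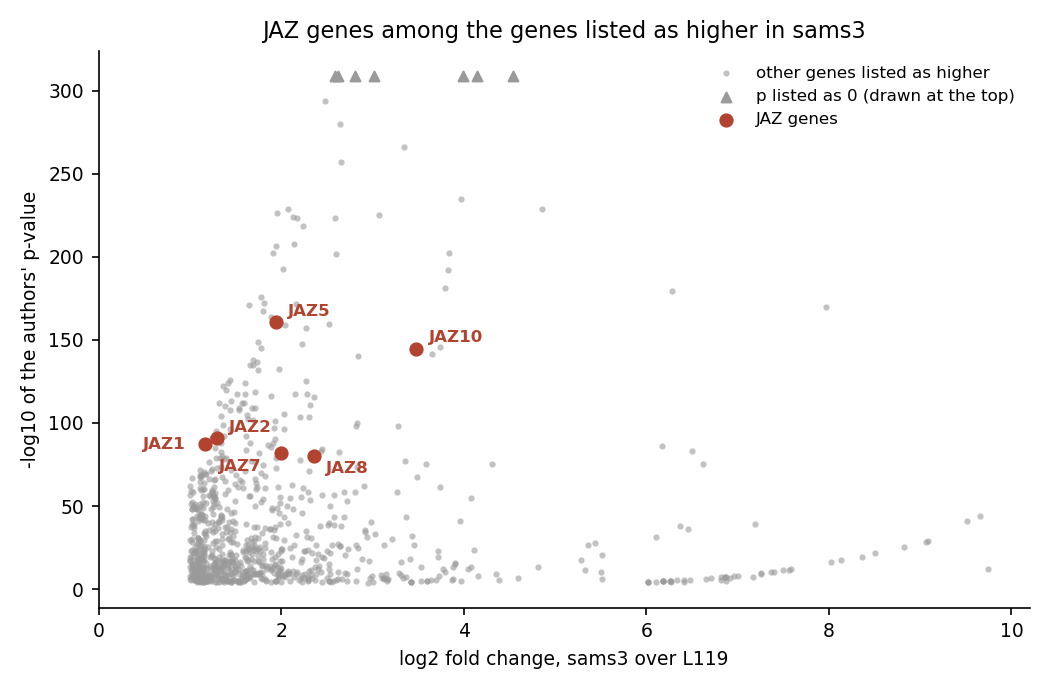
Each point is a gene that the authors' deposited table lists as higher in sams3 than in L119. The horizontal axis is the log2 fold change, the vertical axis -log10 of the authors' p-value, and triangles are the 7 genes whose p is listed as 0. The 6 JAZ genes (red) lie between log2 values of 1.17 and 3.48 and between 80.0 and 160.7 on the vertical axis.

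The reference table names 12 genes as JAZ, and the other 6 (JAZ3, JAZ4, JAZ6, JAZ9, JAZ11 and JAZ12) were not listed in either direction. The listed genes were counted in each of the known groups of similar JAZ proteins, which are small. In the group of JAZ1, JAZ2, JAZ5 and JAZ6, 3 of 4 genes were listed as higher. Both genes of the group of JAZ7 and JAZ8 were listed, as was JAZ10, which stands on its own. In the group of JAZ3, JAZ4 and JAZ9, 0 of 3 were listed, and in that of JAZ11 and JAZ12, 0 of 2. Of all protein-coding reference loci, 3.12% were listed as higher and 1.58% as lower. For groups this small, 0 listed genes lies near that background. The grouping is background knowledge, set down with the listing known, and the spread over groups was not tested. The list of jasmonate genes written for this comparison also places AT3G22275 with the JAZ genes, an assignment that neither the deposited tables nor the reference make. It was higher, with a log2 fold change of 3.71 in the authors' deposited table (p = 8.22e-24), where it is described as an unknown protein. It stayed out of the family counts for want of a symbol. Counted with the family, it would bring the listed genes to 7 and stand above JAZ10 by fold.

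Best protein matches named in the deposited descriptions tie 4 of the 6 genes into pairs. JAZ1 and JAZ2 name each other, as do JAZ7 and JAZ8. JAZ5 names JAZ6 and JAZ10 names JAZ12, neither of which was listed. Both pairs had similar rises: the log2 fold changes in the authors' deposited table differ by 0.13 between JAZ1 and JAZ2 and by 0.35 between JAZ7 and JAZ8. Over all 15 pairs that can be formed from the 6 genes, the matched pairs included, the median difference was 0.83. JAZ5 and JAZ7, which do not name each other, lay closer than either matched pair, at 0.06. Pairs that name each other were common in the tables, with 86 among all listed genes, of which 81 had both genes in the same direction. A pair was formed only where both genes were listed. Partners short of the authors' limits, such as JAZ6 and JAZ12, therefore do not enter these counts or differences. For the 54 other pairs with both genes higher the median difference was 0.48, with quartiles of 0.13 and 0.76, so similar folds were not particular to the JAZ pairs. The labels do not say how reads that match both genes of a pair were counted, and single values of such pairs carry that uncertainty.

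**Figure D3:**
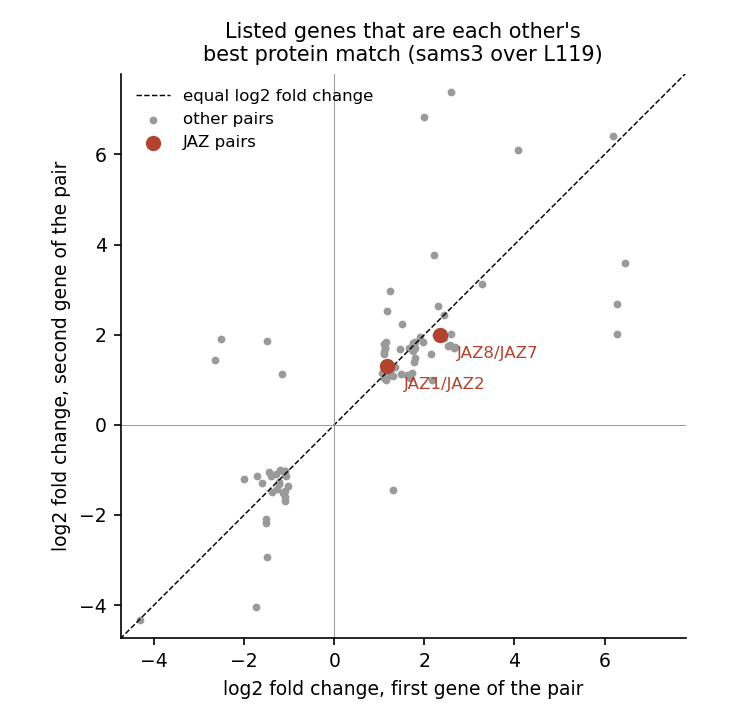
Each point is a pair of listed genes that name each other as best protein match, with the log2 fold change, sams3 over L119, of one gene on each axis, from the authors' deposited table. The dashed line marks equal values. The JAZ1/JAZ2 and JAZ8/JAZ7 pairs (red) lie near the line, 0.13 and 0.35 apart, among other pairs with both genes higher.

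The deposited descriptions give the 6 genes a Tify domain and no other listed gene, higher or lower, has one. A domain called CCT domain-like, which covers the Jas motif region, is named for 5 of the 6. JAZ7 is the one without it, although its best match JAZ8 has it. A biological process is named for JAZ10, with response to jasmonic acid and to wounding among the terms, and for 0 of the other 5, so a count of genes by these terms misses them.

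The 6 genes did not lie in runs of higher genes. Of the 60 loci made up of the 5 on each side of each gene in the reference order, 4 were listed (2 higher and 2 lower), and 3.53% of all reference loci were listed. In the authors' deposited table the 2 higher neighbours were AT1G17345, near JAZ5, at a log2 fold change of 2.52 and AT5G13200, near JAZ10, at 1.66. The 2 lower neighbours in the authors' deposited table were AT1G74940, next to JAZ2, at -1.003 and PID, near JAZ7, at -1.16. PID encodes a kinase of auxin transport. LOX3, an enzyme of jasmonate synthesis described further on, lies 6 loci from JAZ5 and so just outside the window; it was picked out after its value was seen. JAZ10 shares 71 of its 2292 bases in the reference with the long noncoding RNA locus AT5G02045, which was not listed. The other 5 overlap no annotated locus. The labels do not say whether reads were counted by strand.

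Partners of the JAZ proteins were next compared with the JAZ genes, from a list of jasmonate genes ordered by role and written with earlier results known. Of 66 genes of the list other than JAZ and TIFY genes, 20 were listed as higher, 1 as lower and 45 were not listed, beside 894 higher and 442 lower among all listed genes. The share of protein-coding reference loci listed was 3.12% for higher and 1.58% for lower genes. The 66 were put together with earlier results known, so the difference from these shares was not tested. The median log2 fold change of the 20 in the authors' deposited table was 1.86, near the 1.97 of the JAZ genes.

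Genes for the machinery through which JAZ proteins act and are removed were not listed. Of 5 genes for the receptor COI1 and its ubiquitin ligase partners, 0 were listed, and so were 0 of 8 corepressor genes, which include NINJA, TPL and the histone deacetylase genes HDA6 and HDA19. The 3 JAM genes, which encode bHLH proteins that compete with MYC factors at their targets, and the 6 other TIFY genes, PPD1 and PPD2 among them, were also not listed. Of all protein-coding reference loci, 3.12% were listed as higher and 1.58% as lower, so 0 listed genes lies near that background for sets this small.

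Of 5 genes for the MYC activators that JAZ proteins hold back and for MED25, 1 was listed, and in the direction opposite to the JAZ genes. MYC4 had a log2 fold change of -1.03 in the authors' deposited table (p = 5.33e-35), just past the authors' minimum. MYC2, MYC3, MYC5 and MED25, the Mediator subunit that works with MYC2, were not listed. Of 13 other transcription factors known to be bound by JAZ proteins, 4 were higher and 0 lower. MYB24 and MYB21, which act in stamens, had log2 fold changes of 6.41 and 6.19 in the authors' deposited table, with p-values of 5.54e-05 (MYB24) and 2.15e-05 (MYB21) close to the authors' threshold, unlike those of the JAZ genes. WRKY57, a factor in leaf senescence, was at 1.71 (p = 2.48e-77), and TT8, a bHLH factor of anthocyanin synthesis, at 1.45 (p = 9.24e-05) in the authors' deposited table. With p below 1e-10, WRKY57 was the 1 left of these 4.

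Genes that make the hormone and genes that remove it were both listed as higher. Of 18 synthesis genes 8 were higher, with log2 fold changes between 1.37 (AOC3) and 2.58 (AOC1) in the authors' deposited table. That range is narrower than that of the JAZ genes and covers JAZ5, JAZ7 and JAZ8. LOX3 was at 1.91 in the authors' deposited table. AOS, which makes the substrate of the AOC enzymes, and JAR1, which joins jasmonate to isoleucine and so makes the ligand of COI1 and JAZ, were not listed. Of 8 genes that turn over or modify the hormone and have a symbol in the reference, 6 were higher. In the authors' deposited table they were led by CYP94C1 at 3.07, an oxidase of jasmonoyl-isoleucine, followed by the hydroxylase genes CYP94B1 at 1.82, JRG21 at 1.77 and CYP94B3 at 1.74. ST2A, a sulphotransferase of hydroxylated jasmonate, was at 1.32 and IAR3, an amidohydrolase, at 1.15 in the authors' deposited table. CYP94C1 was thus the nearest to JAZ10 in size among the genes for synthesis and removal. Loci with no symbol in the reference were kept out of the count: AT5G05600 and AT2G38240, described as oxygenases, were at 2.60 and 2.22 in the authors' deposited table, and AT3G11180 was not listed.

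Of 6 genes taken as outputs of the MYC branch, 2 were higher, NATA1 and CORI3, at log2 fold changes of 4.53 and 3.01 in the authors' deposited table. The vegetative storage protein genes VSP1 and VSP2, often measured beside JAZ10 as jasmonate markers, were not listed. TAT3 and LOX1, the rest of the 6, were not listed either. The count depends on how the set was filled: LOX2, placed with synthesis here, was at 1.78 in the authors' deposited table. Of all protein-coding reference loci, 3.12% were listed as higher and 1.58% as lower, and the difference was not tested.

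**Figure D4:**
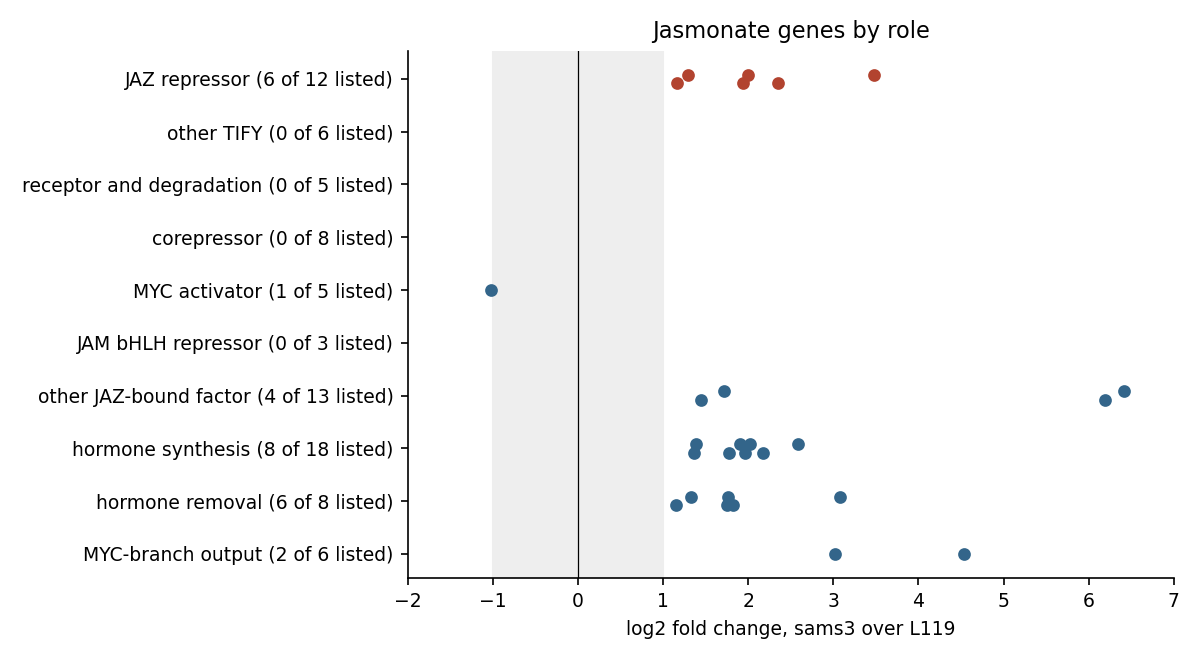
Log2 fold change, sams3 over L119, of the listed jasmonate genes by role, from the authors' deposited table. Each point is a gene, JAZ genes are red, labels count listed genes of all genes of the role with a symbol in the reference, and the grey band is the range below the authors' minimum fold. The 6 JAZ genes lie between 1.17 and 3.48, with JAZ10 above every listed gene for hormone synthesis (up to 2.58) and removal (up to 3.07) and with no listed gene for the receptor or corepressors.

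With a single comparison, likeness to a JAZ gene can be given only as closeness in log2 fold change. The listed genes nearest to each were all within 0.01. In the authors' deposited table they were MAPKKK21 for JAZ10 (3.49), AT4G33720 for JAZ8 (2.35), AT4G16820 for JAZ7 (2.00), AT3G05730 for JAZ5 (1.94), AT5G46510 for JAZ2 (1.29) and AT3G46930 for JAZ1 (1.17). Their p-values ran from 3.04e-207 for AT3G05730 to 3.90e-05 for AT4G16820 in the authors' deposited table, a far wider range than that of the JAZ genes.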

How the data were processed

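The values are from 2 lists deposited by the authors, of genes higher and lower in sams3 than in L119. Per the file headers, the authors' limits were a change of 2-fold and a p-value of 0.0001, and adjustment of that p-value is not mentioned. Log2 values are log2 fold changes as deposited by the authors. The submitters' processing notes name Bismark, Bowtie2, edgeR and TAIR10, without roles or versions. One more table was byte for byte the list of higher genes and another held transposable elements. Neither these nor the bisulfite libraries (1 of each genotype) were used.

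Genes were ranked, counted by list and matched by identifier to RefSeq's table of assembly TAIR10.1 (1335 of 1336 listed genes, all 6 JAZ genes, 37899 nuclear loci, 27444 of them protein-coding), which was used for names and gene order only. Named genes were the JAZ genes, listed genes of the jasmonate roles, neighbours within 5 loci and the gene nearest to each JAZ gene in fold. Of the 88 genes of the list, 4 have no symbol in the reference and were left out of counts. Members and lists were chosen with earlier results of these data known. No test was run. Planned comparisons of promoters and proteins were not made. The alternatives were stricter thresholds, other summaries, another denominator and AT3G22275 counted with the family. Python 3.11.15, numpy 2.4.6, pandas 2.3.3 and matplotlib 3.10.9 were used.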

Additional observations from a re-analysis of the deposited data

How the results depend on the processing

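Of 33 alternatives, 23 left a count or median within 1.5 times its value, 10 moved it further and 0 reversed it. A reversal was not possible, since stricter limits can only lower a count and all 6 log2 fold changes are positive. The count of JAZ genes listed as lower could only stay at 0. The stricter limits on p could not change the JAZ counts either, because the largest p of the 6 in the authors' deposited table was 9.59e-81. With an absolute log2 of at least 2, 3 JAZ genes were left (JAZ7, JAZ8 and JAZ10), as were 8 other jasmonate genes higher and 0 lower, and 288 higher and 58 lower genes in all. JAZ7 lies just inside that threshold at 2.00 and JAZ5 just outside it at 1.94 in the authors' deposited table. With p below 1e-10, all 6 JAZ genes were left, 17 of the 20 other jasmonate genes listed as higher (without MYB21, MYB24 and TT8), and 647 higher and 274 lower genes in all. Of the 4 JAZ-bound factors, 2 passed the stricter limit on fold, and 1 was left with p below 1e-10 or below the Bonferroni threshold over reference loci (1.32e-06); these settings were chosen for them after the data were seen. So was counting AT3G22275 with the family, which gave 7 listed genes in place of 6. Fewer genes pass these thresholds by construction. The median log2 fold change of the JAZ genes was between 1.94 and 2.00 with any 1 gene left out, and the mean was 2.04. No paired analysis was possible because no values per library were used. For that reason leaving out each replicate, filters on low values and other normalizations were not run. The alternatives for promoter motifs and protein identity were not run either.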

Other observations

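The deposited description of JAZ10 gives 30201 Blast hits in 780 species, with 1396 in bacteria and 17338 in animals, whereas those of the other 5 JAZ genes give 38 (JAZ7) to 439 (JAZ1) hits. The same 30201 hits, proteins and species stand in the descriptions of 121 listed genes, JAZ10 included, so the figure does not describe JAZ10 itself.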
